A study of Mus musculus with 4 samples.

Results

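The clustered protocadherin genes are described here in TBV2 mouse embryonic stem cells (ESC), before and after inhibition of class I histone deacetylases. Members were all rows of the deposited expression tables whose symbol begins with Pcdha, Pcdhb or Pcdhg: 22 of 28250 rows, of which 1 (Pcdha4) stands for the alpha cluster, 20 (Pcdhb1 to Pcdhb20) for the beta cluster and 1 (Pcdhgb1) for the gamma cluster. TBV2 is a feeder-dependent mouse line, used in the study as wild type and as an EGFP transgenic, and the labels do not say which of these gave the RNA. All cells were kept with LIF. The groups were 2 libraries of cells given solvent for 24 h and 2 libraries of cells given 5 µM MS-275, a benzamide inhibitor of class I histone deacetylases, for 24 h. No source says that the 2 libraries of a group came from separate cultures, so the tests measure the spread between these libraries, which may be technical.

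Protocadherins of the 3 clusters are single-pass cadherins that meet the same protein on a neighbouring cell, and in neurons each cell uses its own combination of them to tell its own branches from those of other cells. In the alpha and gamma clusters every gene has its own large first exon, called variable, which holds the whole extracellular part and is spliced to 3 constant exons shared by the whole cluster. Beta genes have a single coding exon and share none. Each variable exon has its own promoter, the promoters are kept silent by DNA methylation and repressive chromatin where they are not used, and CTCF and cohesin loop a distant enhancer to the promoter that is used. The last 2 alpha genes and the last 3 gamma genes are called C-type and follow other rules of choice.

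On chromosome 18 of mm9, all on the plus strand, the alpha cluster runs from the Pcdha1 exon at 37089909 to the end of its constant exons at 37347311. The beta genes lie between 37424646 and 37681073, and the gamma cluster runs from the Pcdhga1 exon at 37821572 to 38001527. The deposited tables hold a single row for the alpha cluster and a single row for the gamma cluster. Which exons those values draw on is not given, so they cannot tell 1 variable exon from another. The deposited alignments, each 35 bases long, can be placed on single variable exons. They were therefore counted on the open frames of 58 variable exons (14 alpha, 22 beta and 22 gamma) and on the constant exons. A distinct position is a start and strand counted once, however many reads share it. Normalised positions are distinct positions per 1000000 of the library. The libraries held 10973569 and 9785619 distinct positions with solvent and 9122347 and 10915650 with MS-275, in the order of the replicates they were deposited with. Replicate 1 of each group also held repeats of these positions (53.2% and 54.4% of its alignments), and replicate 2 held none. Across 10851 genes, which are no independent replicates, the difference between replicates ran in opposite directions in the values and in the alignments (r = -0.94 with solvent and -0.91 with MS-275), so the alignments deposited with replicate 1 go with the values of replicate 2 in both groups. The authors' names for these libraries, old and new, are reversed between values and alignments in the same way. As both groups are affected alike, this touches neither the comparison between groups nor the pairing of libraries by number. Below, values and positions each carry the replicate they were deposited with.

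Nearly all of the family's signal in ESC given solvent came from the gamma cluster, while alpha and beta genes were close to silent. After MS-275, alpha and beta values were higher in both libraries for nearly all rows, and the values of the gamma row overlapped between the groups. With solvent the values of the 20 beta rows summed to 0.0104 and 0.0110 in replicates 1 and 2, and with MS-275 they summed to 0.0974 and 0.0761. Thus the beta sum was far higher in both treated libraries. The alpha row was 0.00519 and 0.00278 with solvent and 0.0243 and 0.0149 with MS-275. The gamma row was 0.177 and 0.129 with solvent and 0.179 and 0.119 with MS-275, so its groups overlapped. In bulk RNA, more cells with the RNA and more RNA per cell cannot be told apart.

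**Figure D1:**
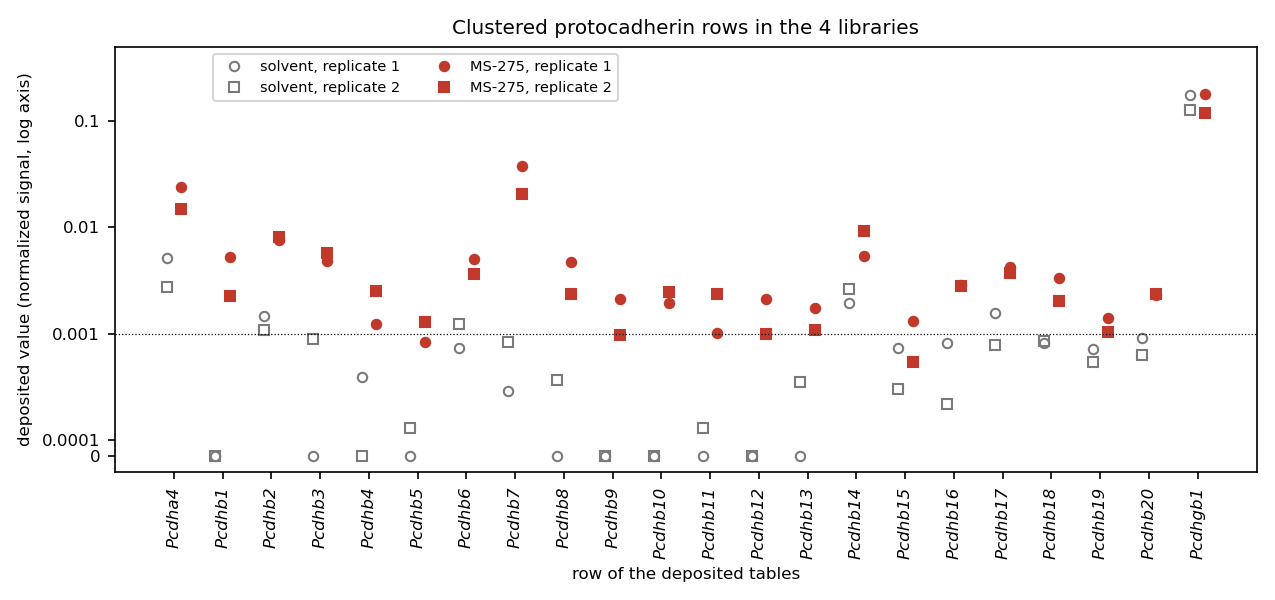
The plot shows the deposited value (normalized signal, log axis, with 0 drawn at the bottom) of each of the 22 rows in the 4 libraries, open grey for solvent and filled red for MS-275, and the dotted line marks the minimum of 0.001. Pcdha4 and 19 of the 20 beta rows have both treated libraries above both solvent libraries, Pcdhb7 stands highest among the treated beta rows, and the 4 points of Pcdhgb1 lie together between 0.119 and 0.179.

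Both MS-275 values lay above both solvent values for 20 of the 22 rows (Pcdha4 and 19 beta rows), against 26.1% of all 28250 rows listed, and for no row did both lie below, against 9.09%. The exceptions were Pcdhb15 (0.000730 and 0.000300 with solvent, 0.00131 and 0.000540 with MS-275) and the gamma row. With values under 0.001 set to 0.001, the treated value was 2-fold or more above its solvent partner in both pairs for 12 rows, against 11.5% of all rows, and 2-fold or more below it for 0 rows, against 2.04%. With a floor of 0.01 only Pcdhb7 met this rule, as it was the sole beta row above that floor with MS-275. Of the 22 rows, 18 passed the filter for the test, 0.001 or more in 2 or more of the 4 libraries. In 12 of the 16 beta rows that passed, both solvent values were under 0.001. These rows entered through the treated libraries, so their direction was set by the filter and their count is a description alone.

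In limma without a block, 0 of the 18 rows passed an adjusted p of 0.05, when 0.00492% of the 20336 genes tested passed as higher and 0.00% as lower. The lowest adjusted p was that of Pcdhb7 (0.0581, limma). The shorter tables of the authors call replicate 1 of both groups old. Libraries with the same number also deviated together from their group means (r = 0.764 across 20336 genes), so they were taken as pairs. Replicate numbers also differed in whether the deposited alignments held repeats, and the pairing cannot be told apart from that difference. With 4 libraries, the fit with the block has few residual degrees of freedom. With the pair as a block, 8 rows passed as higher and 0 as lower in limma, against 21.0% and 6.46% of all genes (4277 and 1314). Without the filter, 0 genes of the whole table passed with the block. After median-ratio scaling that split over all genes was 3402 and 2370, after quantile normalization 2828 and 2681, and 6 and 4 rows still passed as higher. The 8 rows were Pcdha4 and the beta rows Pcdhb1, Pcdhb2, Pcdhb3, Pcdhb6, Pcdhb7, Pcdhb8 and Pcdhb14. Of these, Pcdhb1, Pcdhb3, Pcdhb7 and Pcdhb8 were under the minimum of 0.001 in both solvent libraries, so their test lends no support to a rise, and Pcdhb6 was under it in 1. Pcdha4, Pcdhb2 and Pcdhb14 were at or above it in all 4 libraries. Pcdha4 and Pcdhb7 passed under all 6 other settings run with the block and a filter, and Pcdhb1 and Pcdhb3 under all 5 that kept them. Pcdhb2 passed under 4 of 5 (not after quantile normalization), Pcdhb8 and Pcdhb14 under 2 of 5, and Pcdhb6 under 1 of 5. The median log2 fold change was 0.53 over the 16 beta rows tested, 0.52 without those listed at 0 in both solvent libraries, 0.45 over all 20 beta rows and 0.20 over all genes tested. Fold changes are on the log2(value + 0.005) scale, which shrinks those of rows this low.

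Pcdhb7 had the largest log2 fold change of the 22 rows. Its value was 0.000290 and 0.000840 with solvent and 0.0381 and 0.0206 with MS-275, so the treated mean was 0.0293 ± 0.0124 over a solvent mean of 0.000565 ± 0.000389 (SD, n = 2 each). Both treated values were more than 20-fold above their solvent pair even with the solvent values raised to 0.001 (ratios of 38.1 and 20.6). The log2 fold change was 2.58 ± 0.31 (SE with the block). In the alignments its variable exon held 4 and 0 distinct positions with solvent and 99 and 136 with MS-275, so that 1 of 22 beta exons took 40.1% and 46.0% of all beta positions in the treated libraries. In the limma-voom fit of positions its log2 fold change was 6.20 ± 0.86 (SE), and 6.12 with the block. It met the minimum of either fit through the treated libraries alone, so these are descriptions.

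Pcdhb1, Pcdhb2 and Pcdhb3 open the beta cluster. Pcdhb1 was listed at 0 in both solvent libraries and at 0.00522 and 0.00224 with MS-275. Its exon held 0 and 0 positions against 11 and 14. That is at least 8.63-fold higher in normalised positions when 3 positions over the solvent group are taken as the floor. This bound covers counting error in the solvent libraries only and takes the treated count as it stands. Pcdhb2 rose from 0.00147 and 0.00108 to 0.00760 and 0.00811, with 5 and 4 positions on its exon against 27 and 21. Here the groups were well apart in both readouts, and the log2 fold change of the positions was 2.18 ± 0.61 (SE). In the values it was 1.04 ± 0.24 (SE with the block, adjusted p = 0.00521 in limma, 0.108 without the block). Pcdhb3 was at 0 and 0.000900 with solvent and at 0.00484 and 0.00581 with MS-275. Its exon held 4 and 0 positions with solvent and 18 and 12 with MS-275 (log2 fold change 3.23 ± 0.99, SE).

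The remaining beta genes had low values throughout. Pcdhb14, with the highest solvent level of the cluster, was at 0.00195 and 0.00264 with solvent and at 0.00541 and 0.00923 with MS-275 (log2 fold change 0.74, adjusted p = 0.0388 with the block in limma). Its exon held 9 and 5 positions against 12 and 15, a difference that did not pass in limma-voom (adjusted p = 0.229 with the block). Pcdhb9, Pcdhb10 and Pcdhb12 were listed at 0 in both solvent libraries and between 0.000980 and 0.00246 with MS-275, and 0 positions fell on their exons with solvent. Without Pcdhb7, the other 21 beta exons together held 45 and 28 positions with solvent and 148 and 160 with MS-275, so the higher sum of the cluster did not rest on Pcdhb7 alone. In normalised positions, both treated libraries exceeded both solvent libraries on 20 of 22 beta exons, against 25.0% of the 37345 genes and exons counted. The exceptions were Pcdhb21 (1 and 2 against 5 and 1 positions) and Pcdhb22 (4 and 2 against 3 and 8), the last 2 genes of the cluster, which are not among the 20 rows of values.

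Counted over whole annotated genes, with the untranslated ends that the frames leave out, 5 members passed as higher and 0 as lower in limma-voom, against 11.7% and 7.06% of 17923 genes. With the block 8 and 0 passed, against 23.3% and 20.0%. All of these but the alpha gene had fewer than 10 positions in each solvent library, so their counts are descriptions. Pcdhb16 held 1 and 3 positions with solvent and 21 and 15 with MS-275 (log2 fold change 2.89). Pcdhb17 held 5 and 5 against 18 and 16, and Pcdhb18 held 8 and 4 against 20 and 18. In the values these 3 rows did not pass (adjusted p between 0.0834 and 0.187 with the block, limma).

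**Figure D2:**
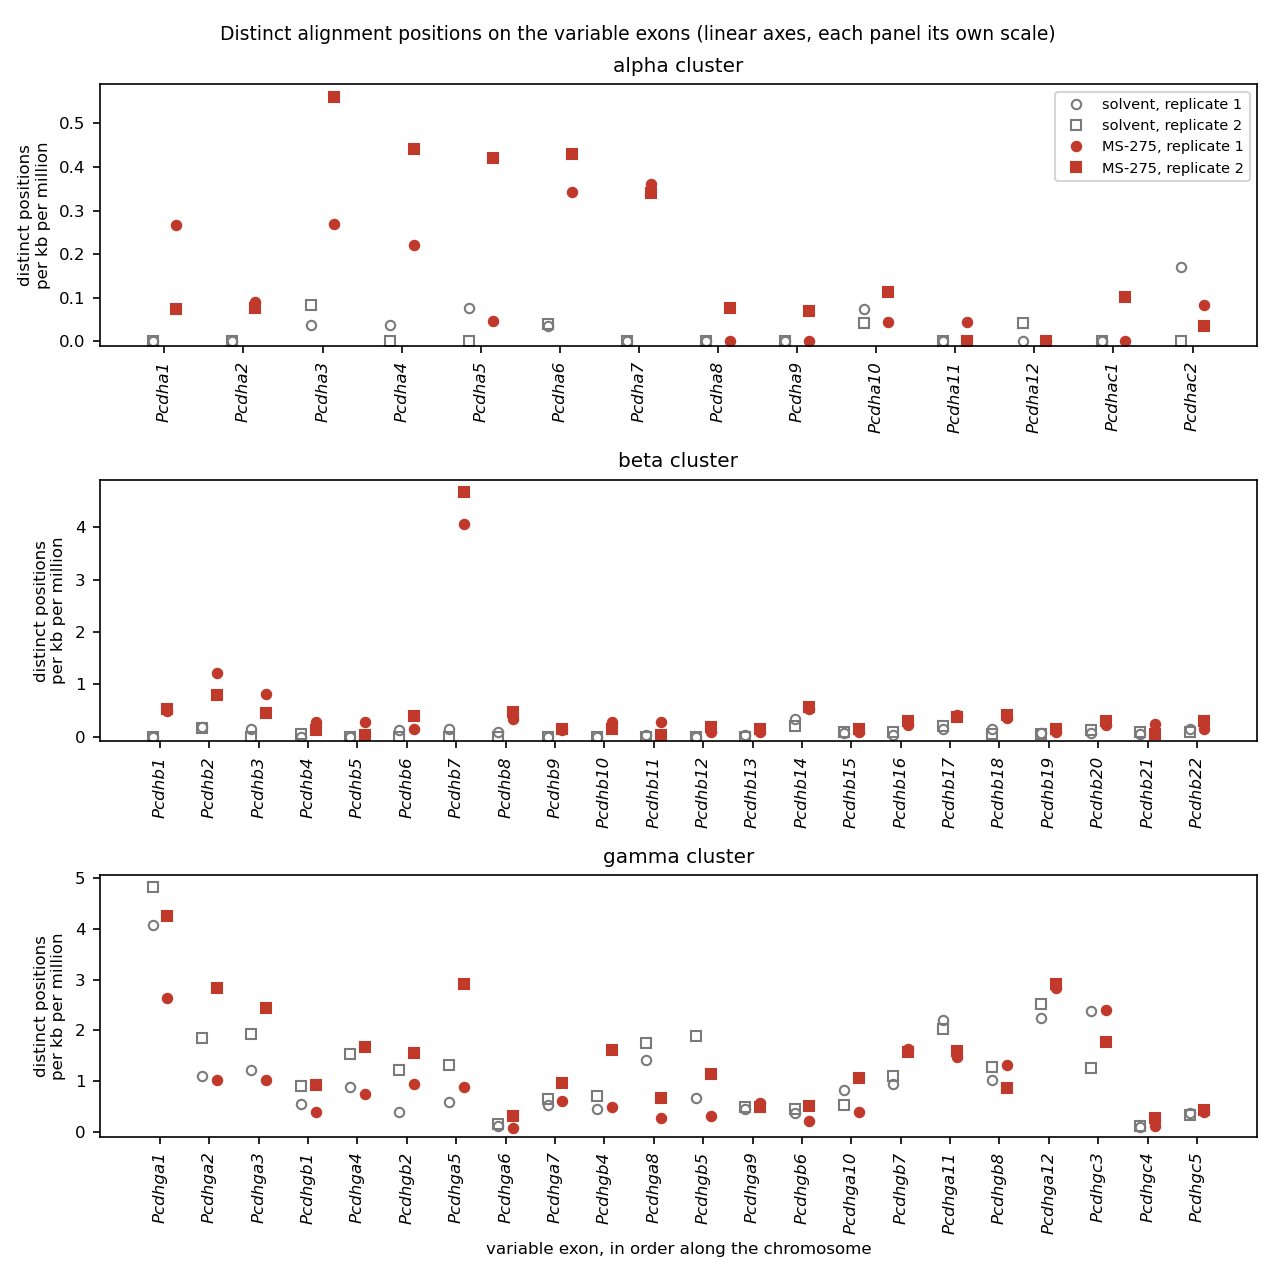
Each panel plots, for 1 cluster, the normalised positions per kb of exon (linear axis, each panel with its own scale) on each variable exon in the order of the chromosome, open grey for solvent and filled red for MS-275. In the alpha panel the treated points stand apart over Pcdha1 to Pcdha7 except replicate 1 of Pcdha5, in the beta panel Pcdhb7 reaches 4.38 on average, and in the gamma panel the groups overlap on most exons, with Pcdhga8 lower after MS-275.

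For the alpha cluster, the row of values rose in both pairs. The treated mean of Pcdha4 was 0.0196 ± 0.00664, over a solvent mean of 0.00399 ± 0.00170 (SD, n = 2 each). The log2 fold change was 1.44 ± 0.29 (SE with the block), with an adjusted p of 0.00181 with the block and 0.180 without it in limma. On the 3 constant exons of the alpha cluster, 17 and 14 distinct positions were found with solvent and 64 and 74 with MS-275. The groups did not overlap, and the log2 fold change of the positions was 2.04 ± 0.40 (SE, adjusted p = 0.0150 without the block and 1.76e-04 with it, limma-voom).

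The variable exons tell the alpha genes apart. In normalised positions, both treated libraries exceeded both solvent libraries on 6 of 14 alpha exons: Pcdha1, Pcdha2, Pcdha3, Pcdha4, Pcdha6 and Pcdha7. Over Pcdha1 to Pcdha7 together there were 5 and 3 positions with solvent and 36 and 63 with MS-275. Over Pcdha8 to Pcdha12 there were 2 and 2 with solvent and 2 and 7 with MS-275, so these exons were almost empty in all 4 libraries. This division was chosen after the values were seen, and a difference between its parts was not tested. Pcdha7, with 0 and 0 positions against 8 and 9, was at least 5.87-fold higher in normalised positions with the floor of 3 positions over the solvent group. Pcdha6 held 1 and 1 against 8 and 12 positions, Pcdha4 held 1 and 0 against 5 and 12, and Pcdha3 held 1 and 2 against 6 and 15. None of the 14 alpha exons reached 10 positions in 2 libraries, so none entered the test. The C-type alpha exons were low in all libraries. Pcdhac1 held 0 and 0 positions with solvent and 0 and 3 with MS-275. Pcdhac2, which guides the spacing of serotonergic axons, held 5 and 0 with solvent and 2 and 1 with MS-275.

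In the gamma cluster, all 22 variable exons had positions in every library. So did all 22 stretches just before these exons, which are described below. In normalised positions per kb, these stretches together were at 0.851 and 1.05 with solvent and at 1.09 and 1.015 with MS-275. The variable exons together were at 1.035 and 1.29 with solvent and at 0.943 and 1.48 with MS-275. How much of the signal on a gamma exon came from its use as a first exon was not tested. The constant exons held 612 and 654 positions with solvent and 495 and 735 with MS-275 (log2 fold change -0.14 ± 0.19 SE, adjusted p = 0.644 in limma-voom, 0.413 with the block). The row of values averaged 0.149 ± 0.0423 after treatment, over a solvent mean of 0.153 ± 0.0340 (SD, n = 2 each). That is a change of -0.05 ± 0.22 on the log2 scale (SE with the block, adjusted p = 0.900 in limma). The pairs differed in sign (0.02 and -0.11). In normalised positions per kb, the gamma constant exons went from 28.9 ± 3.69 to 28.7 ± 4.36 (SD, n = 2 each), when the alpha constant exons went from 0.521 ± 0.0293 to 2.41 ± 0.0585. Even after treatment the alpha cluster was thus far below the gamma cluster on this scale.

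Among gamma exons Pcdhga1 had the highest level, 4.45 ± 0.527 normalised positions per kb before and 3.44 ± 1.14 after treatment (SD, n = 2 each), from 110 and 116 positions against 59 and 114. By the mean over all 4 libraries it was followed by Pcdhga12 (63 and 63 against 66 and 81 positions), Pcdhgc3 (70 and 33 against 59 and 52) and Pcdhga11 (61 and 50 against 34 and 44). The order below Pcdhga12 differed between the groups: with solvent Pcdhga11 (2.12 normalised positions per kb) was above Pcdhgc3 (1.82), and with MS-275 Pcdhga2 (1.93) and Pcdhga5 (1.90) were above Pcdhga11 (1.54). These levels were not corrected for the signal in the sequence before each exon, so the order is one of positions and not of exon use. None of Pcdhga1, Pcdhga12, Pcdhgc3 and Pcdhga11 passed in limma-voom, with adjusted p between 0.0854 and 0.849 with the block. Pcdhga8 was the 1 gamma exon that passed. It held 38 and 42 positions with solvent and 6 and 18 with MS-275, groups that did not overlap. Its log2 fold change was -1.92 ± 0.53 (SE, adjusted p = 0.0428 in limma-voom, 0.00190 with the block). Without MS-275 replicate 1 it was -1.35 and did not pass (adjusted p = 0.161, limma-voom), nor did it pass without TMM factors (adjusted p = 0.0512, limma-voom). Pcdhga5, named after its values were seen, held 16 and 32 against 20 and 79 positions and did not pass (adjusted p = 0.0588 with the block in limma-voom). The A-type exons together held 430 and 478 positions with solvent and 287 and 605 with MS-275, and the B-type exons 120 and 184 against 121 and 224. The C-type exons held 84 and 45 against 72 and 73. Within the C type, Pcdhgc4, which neurons need for survival, held 3 and 3 against 3 and 8, and Pcdhgc5 held 11 and 9 against 10 and 13. The gamma totals of each type therefore overlapped between the groups.

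Over all 58 variable exons, 25 had at least 10 positions in at least 2 libraries (5 beta and 20 gamma). Of these, 3 passed as higher (Pcdhb1, Pcdhb2 and Pcdhb7) and 1 as lower (Pcdhga8) in limma-voom without a block, against 11.7% and 7.03% of the 17940 genes and exons tested. With the block, 4 passed as higher (Pcdhb3 in addition) and 1 as lower, against 23.2% and 20.0%. Pcdhb1, Pcdhb2, Pcdhb3 and Pcdhb7 passed the count filter through the treated libraries, so the higher count is a description. With every repeated alignment counted, 0 exons and 0 of all genes passed in either direction without the block (2431 higher and 1081 lower over all genes before adjustment, at a p below 0.05, limma-voom). Both treated libraries were below both solvent libraries for Pcdhga8 and Pcdhga11, against 11.7% of all genes and exons counted.

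Few of the counted positions could fit more than 1 place in the genome. Alpha and beta exons resemble each other, and between 65.8% and 100% of the bases of an exon start a stretch of 35 bases that occurs once in the genome. Of the positions counted, nearly all did: 247 of 247 and 294 of 296 on beta exons with MS-275, and 40 of 40 and 73 of 74 on alpha exons. Positions that fit several members were thus few among those deposited. How reads that fit several places were handled is not given, so this does not show that such reads were few. An exon with fewer stretches that occur once can show fewer positions, and levels per kb were not corrected for this. Libraries were made without keeping the strand, so RNA from the opposite strand cannot be told apart. The antisense RNA Gm16882 lies within the gamma cluster.

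**Figure D3:**
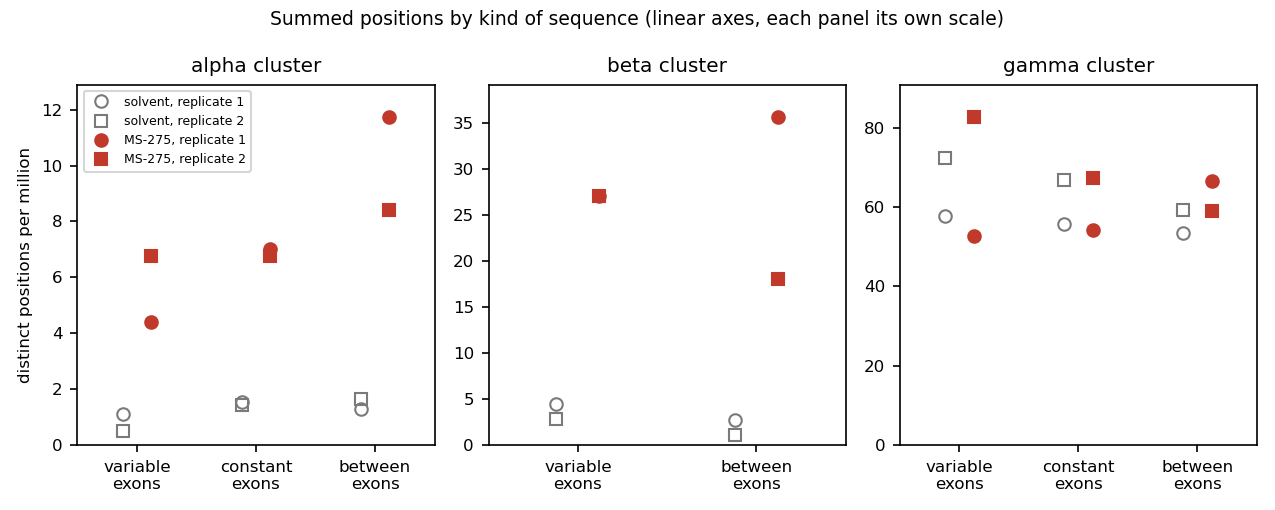
The 3 panels plot the summed normalised positions (linear axes from 0, each panel with its own scale) on variable exons, constant exons and the sequence between exons of each cluster. In the alpha and beta panels every treated point is above every solvent point for each kind of sequence, and in the gamma panel the groups overlap on all 3 kinds.

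Positions outside the exons were also more frequent in both treated libraries for the alpha and beta clusters. Between the annotated exons and variable frames of the beta cluster, leaving out 500 bases on either side of each frame, 30 and 11 positions were found with solvent and 325 and 197 with MS-275. Between those of the alpha cluster there were 14 and 16 against 107 and 92. Between those of the gamma cluster there were 586 and 579 against 607 and 644. In normalised positions, the beta sequence went from 2.73 and 1.12 to 35.6 and 18.1, and the alpha sequence from 1.28 and 1.64 to 11.7 and 8.43. In the gamma sequence treated libraries were at 1.25 and 0.997 times their solvent partner. These stretches were chosen after the alignments were seen and were not tested.

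Much of this beta signal lay in a few places. In the 3000 bases before the Pcdhb7 exon, leaving out the nearest 200, there were 0 and 0 positions with solvent and 119 and 95 with MS-275, at least 73.9-fold more in normalised positions with the floor of 3 positions over the solvent group. In normalised positions per kb this stretch was at 4.66 and 3.11 in the treated libraries, and the exon it precedes was at 4.38 on average. Before Pcdhb3, in sequence that also follows the annotated end of Pcdhb2, there were 7 and 0 positions against 90 and 30. Before Pcdhb17 there were 5 and 1 against 10 and 27. Of the treated positions before Pcdhb7, 61 and 43 were on the plus strand, near an even split, as a library without strand gives. Both treated libraries were above both solvent libraries before 12 of 21 beta exons, against 20.8% of the other genes below. The same held before 9 of 14 alpha exons and 5 of 22 gamma exons. Of 15347 other protein-coding genes with no neighbour in that stretch, 0 had at least as many treated positions and at most as many solvent positions as Pcdhb7, and 1 as Pcdhb3. These stretches were picked for their counts after the alignments were seen, so this ranking is a description. The one before Pcdhb3 also follows a neighbour, unlike those of the other genes. Which promoter or gene end this RNA belongs to was not tested.

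**Figure D4:**
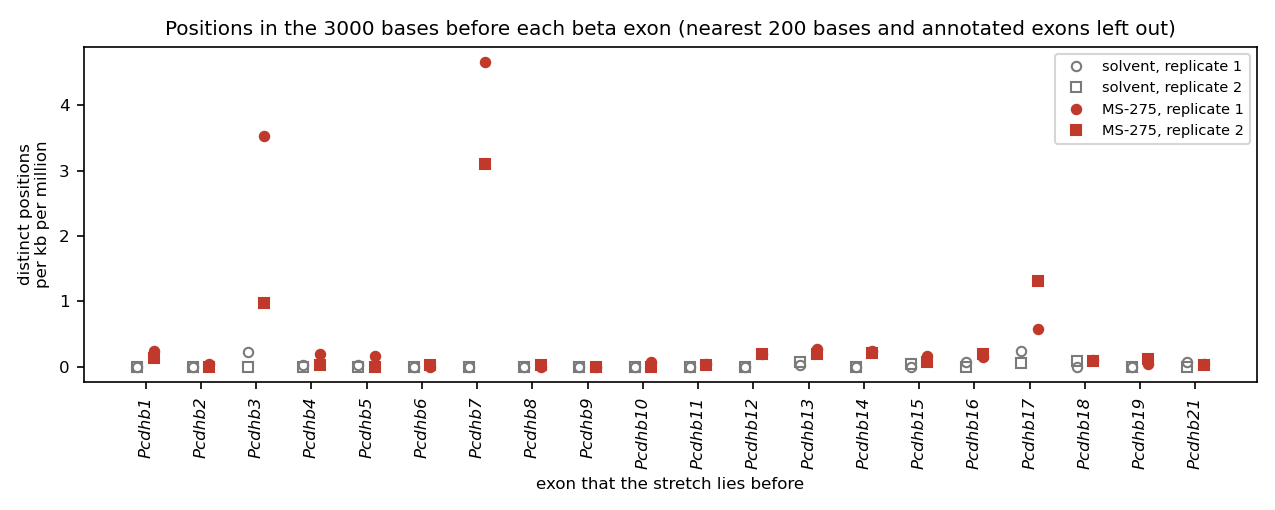
For each beta gene the plot gives the normalised positions per kb in the 3000 bases before its exon (nearest 200 bases, annotated exons and stretches under 1000 bases left out), open grey for solvent and filled red for MS-275. The stretches before Pcdhb3, Pcdhb7 and Pcdhb17 stand above the rest after MS-275, with Pcdhb7 at 4.66 and 3.11 and 0 in both solvent libraries.

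Genes that lie among the clusters or next to them were compared next. Between beta and gamma, Slc25a2, a mitochondrial ornithine carrier, was at 0.000760 and 0.00190 with solvent and at 0.00613 and 0.00483 with MS-275 (log2 fold change 0.73, adjusted p = 0.0325 with the block in limma, which passed under 2 of 5 other settings). Its neighbour 3222401L13Rik was at 0.0545 and 0.0243 against 0.0764 and 0.0584 (0.78, adjusted p = 0.0478 with the block in limma, 1 of 6 other settings). It held 124 and 151 positions against 222 and 236 (adjusted p = 0.0135 with the block and 0.108 without it, limma-voom). Taf7, a subunit of the general transcription factor TFIID, was at 0.650 and 0.892 against 0.846 and 2.05 and did not pass (adjusted p = 0.0845 with the block, limma), although its positions did (1108 and 1119 against 1473 and 1569, adjusted p = 0.0231 with the block in limma-voom). Outside the clusters, Zmat2 on the alpha side had a log2 fold change of 0.02, and Diap1 (Diaph1, a formin) and Hdac3, itself a class I histone deacetylase, on the gamma side had 0.31 and 0.26. None of these 3 passed (adjusted p of 0.318 or more with the block, limma). In the alpha cluster the long noncoding RNA Gm10544 was at 0.00162 and 0.000670 against 0.00435 and 0.000570. Gm10545 in the alpha cluster and Gm6756 just before it did not reach the filter. Antisense Gm16882, counted in the alignments alone and on both strands, held 89 and 59 positions with solvent and 65 and 88 with MS-275. Its annotated span runs over gamma variable exons, from just before Pcdhga10 into Pcdhga12. Without strand, these positions cannot be told from RNA of those exons and are no measure of the antisense RNA alone.

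**Figure D5:**
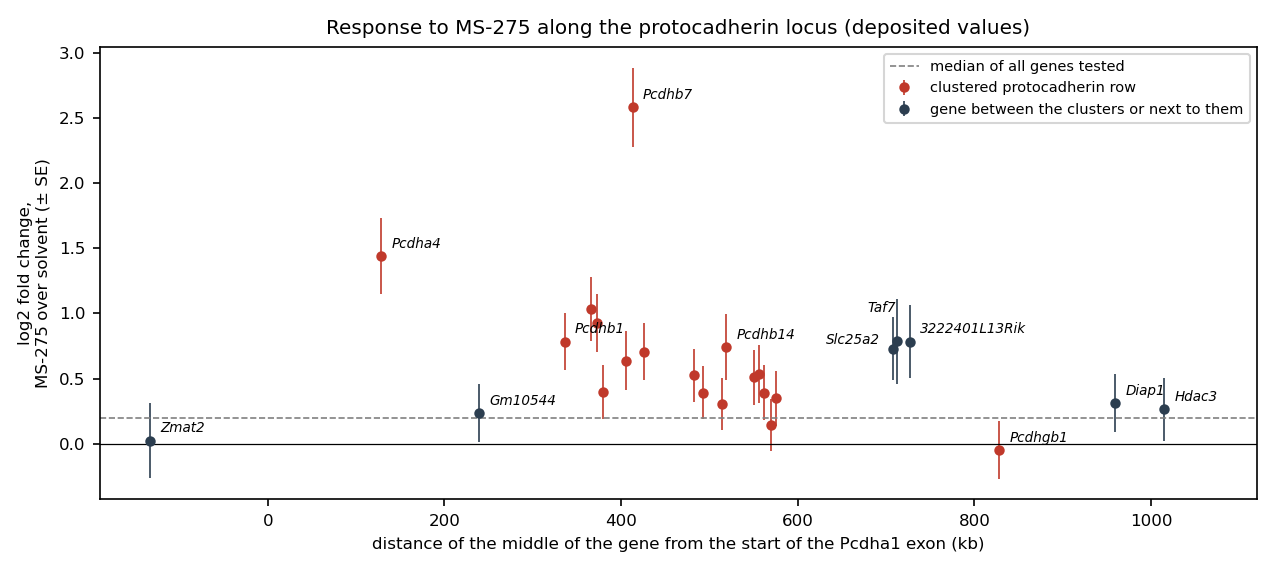
The plot gives the log2 fold change of the deposited values (MS-275 over solvent, ± SE of the fit with the block) for the 18 clustered rows that were tested (red) and 7 genes between or next to the clusters (dark), against the distance of the middle of the gene from the start of the Pcdha1 exon in kb. Pcdhb7 at 2.58 and Pcdha4 at 1.44 stand highest, most beta rows lie above the median of all genes (0.20, dashed), and Pcdhgb1 lies at -0.05.

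The protocadherins outside the clusters, whose genes stand alone elsewhere in the genome or near the gamma cluster, were listed for comparison. Of 13 such genes, 10 were tested, and 5 passed as higher and 0 as lower in the values with the block in limma (0 and 0 without it), against 21.0% and 6.46% of all genes. In positions 5 and 0 passed without the block in limma-voom, against 11.7% and 7.06% of all genes. With the block 7 and 0 passed, against 23.3% and 20.0%. The 5 that passed without it had fewer than 10 positions in each solvent library, so their count is a description. The median log2 fold change of the 10 in the values was 0.94. Of the 5, all but Pcdh9 were under 0.001 in both solvent libraries and entered the test of values through the treated ones. Pcdh8, an activity-regulated member, went from 0.000850 and 0.000590 to 0.0345 and 0.0312. Pcdh17, which acts at synapses, went from 0.000330 and 0.000140 to 0.0160 and 0.0318, and Pcdh9 from 0.00283 and 0.000600 to 0.0152 and 0.0161. On the log2 scale these changes were 2.73, 2.41 and 1.64, and the 2.58 of Pcdhb7 lay between the first 2. Pcdh10 and Pcdh20, the other 2 that passed, were named after their values were seen.

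Of 25 genes known to act on the choice or silencing of clustered protocadherin promoters, all were tested, and 3 passed as higher and 4 as lower in the values with the block in limma (0 and 0 without it), against 21.0% and 6.46% of all genes. In positions 3 passed as higher and 10 as lower with the block in limma-voom, against 23.3% and 20.0%. Without the block 2 and 6 passed, against 11.7% and 7.06%. Those lower in positions include genes that did not pass in the values and are not named below. The 3 higher in the values were the de novo DNA methyltransferases and their cofactor: Dnmt3a (log2 fold change 1.29, adjusted p = 0.00255), Dnmt3l (1.04, adjusted p = 0.0152) and Dnmt3b (0.81, adjusted p = 0.0127, not passed after median-ratio scaling). Among those lower in the values were the cohesin subunit Stag2 (-1.25, adjusted p = 8.57e-04), the repressor Rest (-1.23, adjusted p = 0.00213) and the histone H3K9 methyltransferase Suv39h2 (-0.79, adjusted p = 0.0177). Dnmt1, which maintains methylation, did not pass (-0.18, adjusted p = 0.632). The remaining lower one was Ctcf (-0.79, adjusted p = 0.0263), named after its values were seen. Ctcf went from 0.470 and 0.532 to 0.335 and 0.247. All of these are values with the block in limma. Except for Dnmt3b, each gene that passed did so under all 6 other settings run with the block and a filter.

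Markers of other cell types were read beside these results. With the block, 21.0% of all genes passed as higher and 6.46% as lower in the values (limma). In positions these shares were 23.3% and 20.0% (limma-voom), and the counts below are to be read beside them. The 8 ESC markers were present in all 4 libraries, with sums of 5.08 and 22.2 with solvent and 4.26 and 13.4 with MS-275, and 0 passed as higher and 2 (Pou5f1 and Esrrb) as lower in the values with the block in limma (0 and 5 in positions, limma-voom). Of 11 fibroblast markers, which feeder cells would carry, 5 (Col1a1, Col1a2, Thy1, Pdgfrb and Lum) passed as higher and 0 as lower with the block, and in positions 4 as higher (these without Lum) and 3 (Col3a1, Dcn and Prrx1) as lower. The sum of the list was 0.329 and 0.314 with solvent and 0.588 and 0.681 with MS-275. Of 8 neuronal markers tested, 3 (Nefl, Nefm and Elavl3) passed as higher and 0 as lower. In positions the same 3 passed as higher and Stmn2 as lower (log2 fold change -0.60, adjusted p = 8.12e-04 with the block in limma-voom). Stmn2, the most abundant of the list, was at 0.856 and 1.99 with solvent and at 0.600 and 1.45 with MS-275. The sums of the list were 1.24 and 2.29 against 1.33 and 2.48, and Dcx stayed under 0.001 in all libraries. Of 6 neural progenitor markers, 2 (Nes and Fabp7) passed as higher and 1 (Sox1) as lower, with sums of 0.158 and 0.199 against 0.214 and 0.233. In positions 4 were tested, without Sox1. There Nes and Fabp7 passed as higher and Msi1 as lower (log2 fold change -0.74, adjusted p = 0.00140 with the block in limma-voom). The markers named here were picked after their values were seen, and 0 of any list passed in the values without the block. The part of these cell types in the higher alpha and beta values was not tested.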

How the data were processed

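RNA was poly(A)-selected, reverse transcribed with random hexamers and read in 36 bp single reads on a Genome Analyzer IIx. The reads were mapped to mm9, and the deposited signal is a normalized expression value per gene that the authors obtained from Genomatix software. The aligner, its handling of repeated and multiply mapping reads and the formula of the signal are not given in the sources used here. Their ratio tables and shorter tables hold values derived from the same libraries and were not used. The vehicle of the RNA-seq controls was not resolved, and the text says solvent. The signal does not give the depth behind a value, so the counts of positions stand beside it. No table held values of libraries other than these 4.

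Groups came from the titles, and the library called a duplicate is replicate 2. limma 3.58.1 (R 4.3.3) was fitted with lmFit and eBayes (trend) to log2(value + 0.005) for genes at 0.001 or more in at least 2 of 4 libraries, with Benjamini-Hochberg adjustment over all of them and a threshold of 0.05. The alternative with the replicate number as a block is printed where it changes a call. The pairing comes from the authors' headers, and the deviations of positions correlated at 0.522 between libraries of the same number.

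Distinct positions (Python 3.11.15, pysam 0.24.0) were assigned by the middle base of the alignment. Open frames of at least 2000 bases were found in mm9: 61 in the locus, of which 58 were named and 3 were not. Beta frames were named by GENCODE M1. Alpha and gamma frames were named by their distance to the shared end of the cluster, compared with RefSeq genes of GRCm38.p6 (names only), where the largest difference was 448 bases. Frames and constant exons replaced the protocadherin genes in the table of all GENCODE M1 genes, features with at least 10 positions in at least 2 libraries were kept, and limma-voom was run with trimmed-mean (TMM) factors written for this work. Bounds from a floor of 3 positions cover counting error in the solvent libraries only and take the treated count as it stands. Both fits were first run on simulated tables in which known changes had been placed.

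Named were, in each cluster, the 4 members of highest mean value, the 3 largest changes in each direction that passed with the block and moved alike in both pairs, the C-type members, at most 3 genes per direction of each list, and the neighbours. For exons the same rule was applied to positions per kb. Members, lists and tests were chosen with earlier results of these data known. Alternatives were the block, pseudocounts, filters, scalings, the trend, all alignments, unique 35-base starts and each library left out. No exon sequences are reported here, and 1 gene of the regulator list is not reported here.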

Additional observations from a re-analysis of the deposited data

How the results depend on the processing

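Counts of members that passed in limma changed with the block and, within it, with the filter. As higher passed 0 rows without it, 1 with a mean value of at least 0.01 and 5 in distinct positions, and with the block 8, 8 with a pseudocount of 0.001, 6 with a pseudocount of 0.02, 2 with a mean of at least 0.01, 4 after quantile normalization, 6 after median-ratio scaling, 6 without the trend and 8 in distinct positions. With the block and no filter 0 passed, as did 0 of all 28250 genes (before adjustment 3897 higher and 1305 lower had a p below 0.05, limma). No setting gave a lower member. In all-gene counts the block gave 4277 higher and 1314 lower against 1 and 0 without it. The median of all genes tested fell from 0.20 to 0.03 after median-ratio scaling and to -0.02 after quantile normalization. The alpha row was at 2.05 and 0.71 with pseudocounts of 0.001 and 0.02, 0.95 after quantile normalization, 1.30 after median-ratio scaling, 2.03 in positions (2.02 with the block) and 1.16 to 1.72 with a library left out. The beta median was 1.34 and 0.17 with these pseudocounts, 0.45 without a filter, 2.58 with a mean of at least 0.01 (Pcdhb7 alone), 0.27 after quantile normalization, 0.48 after median-ratio scaling, 2.63 in positions (2.67 with the block) and 0.48 to 0.58 with a library left out. The gamma row was at -0.27 after median-ratio scaling, -0.15 in positions and -0.33 to 0.24 with a library left out (0.17 without solvent replicate 1, 0.24 without MS-275 replicate 2). The rule of 2-fold in both pairs gave 1 row with a floor of 0.01 and 4 rows at 3-fold. With all alignments 0 exons were higher and 0 lower (6 higher with the block), and the alpha constant exons were at 2.14 (adjusted p = 0.110, limma-voom), which did not pass. Without TMM factors 5 exons were higher with the block and 0 lower without it, and without MS-275 replicate 1 there were 0 lower. With a library left out Pcdhga2 ranged from -0.57 (without MS-275 replicate 2) to 0.84, with -0.19 without solvent replicate 1, and Pcdhgc3 from -0.37 (without solvent replicate 2) to 0.60, with -0.13 without MS-275 replicate 1, against 0.17 and 0.10 with all 4. Why these values moved was not tested, beyond what follows from the pseudocounts and filters themselves. Depth was too low to test any of the 14 alpha exons.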

Other observations

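Proteins that bind clustered protocadherins or act after them were also followed. Of 18 such genes, 17 were tested, and 5 passed as higher and 1 as lower with the block in limma (0 and 0 without it), against 21.0% and 6.46% of all genes, with a median log2 fold change of 0.20, the same as that of all genes tested. Ret, a receptor tyrosine kinase that forms complexes with alpha and gamma protocadherins, went from 0.00624 and 0.00205 with solvent to 0.0863 and 0.0289 with MS-275 (log2 fold change 2.64, adjusted p = 3.30e-05 with the block in limma). Of the WAVE complex, which joins protocadherins to actin, Cyfip2 and Wasf1 were higher (0.81 and 0.76, adjusted p = 0.0180 and 0.0244 with the block in limma, neither passed after median-ratio scaling) and Nckap1 was lower (-1.03, adjusted p = 0.00888). The other tested members, Cyfip1, Abi1 and Abi2, did not pass in the values (-0.21, 0.04 and 0.25). In positions Cyfip1 passed as lower (-1.16, adjusted p = 0.00855 without the block in limma-voom), and Wasf1 did not pass with the block (adjusted p = 0.0842, limma-voom).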
